A study of Mus musculus with 4 samples.

Results

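The 89 genes described here encode the nuclear part of the mitochondrial respiratory chain, complexes I to V. They were chosen by name, as every gene whose single symbol in the platform annotation begins with Ndufa, Ndufb, Ndufc, Ndufs, Ndufv, Uqcr, Cox4 to Cox8 or Atp5, or is Sdha, Sdhb, Sdhc or Sdhd, out of 19938 genes measured on 4 single-colour Affymetrix arrays. The label of respiratory chain subunits held for most of them. By their known roles, 73 are subunits used in most tissues, 7 are tissue isoforms of complex IV, 7 are assembly factors of complex I (Ndufaf genes, which help build the complex and are not part of it) and 2 are paralogs that match by name only (Ndufa4l2 and Cox7a2l).

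The lymphoma group held 2 arrays of CD4+ lymphoma cells from the spleens of C57BL/6 mice in which both copies of Tet2 carry a gene trap. Tet2 is the gene of a dioxygenase that oxidises methylated cytosine in DNA. The wild type group held 2 arrays of CD4+ splenocytes of C57BL/6 mice without the trap. Both were taken with a biotinylated CD4 antibody on magnetic columns after red cells had been lysed. The trap was carried in the germ line, so it was not limited to T cells, and lymphoma and genotype differed together and cannot be told apart. No label gives the ages, the purity of the cells or the number of animals, so p-values measure the spread between these arrays, which may be technical. The comparison shows how the genes of oxidative phosphorylation stood in CD4+ lymphoma without intact Tet2, relative to normal CD4+ cells.

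As background, complex I takes electrons from NADH and complex II, succinate dehydrogenase, takes them from succinate, and both pass them to ubiquinone. Complex III hands them by way of cytochrome c to complex IV, which reduces oxygen, and complex V makes ATP from the proton gradient that complexes I, III and IV set up. Resting T cells rely largely on oxidative phosphorylation, while activated T cells add aerobic glycolysis and enlarge their mitochondrial mass. A few subunits of complexes I, III, IV and V are encoded in mitochondrial DNA and were not analysed here.

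Values are the authors' deposited intensities, and differences are log2 of lymphoma over wild type from a limma fit on all 19938 genes, with p-values adjusted over all of them (Benjamini-Hochberg). A gene was called at an adjusted p under 0.05. With 2 arrays a group, the number of arrays limited the precision of every value. The median intensity over all probe sets lay between 129.8 and 142 on the 4 arrays. Tet2 had 596 and 399 in lymphoma, against 979.9 and 1016 in wild type, a difference of -1.03 on the log2 scale (SE 0.24, adjusted p = 0.0771). The summed intensity of 6 T cell genes (Cd3d, Cd3e, Cd3g, Cd4, Cd5 and Thy1) was 24091 and 25226 in lymphoma, against 23389 and 22039 in wild type. Cd4 had 5839 and 7134 in lymphoma, against 4552 and 5153 in wild type, and it and the Cd3 genes had positive differences that were not called. Cd5 had 2443 and 1557 in lymphoma, against 3929 and 3479 in wild type (log2 difference -0.92, SE 0.24, adjusted p = 0.113), and Thy1, with 884 and 979.9 in lymphoma, against 3408 and 2202 in wild type, was called lower (log2 difference -1.56, SE 0.24, adjusted p = 0.023). Markers of other cells were not alike: the summed intensity of 7 B cell genes was 2188 and 1042 in lymphoma, against 16181 and 10546 in wild type, and all 7 were called lower, among them Cd79a with 519 and 168 in lymphoma, against 4016 and 2175 in wild type. That of 6 dendritic cell genes was 704 and 722 in lymphoma, against 4818 and 4033 in wild type, with 5 called lower. For 8 macrophage and monocyte genes it was 2238 and 3695 in lymphoma, against 8487 and 8716 in wild type, with 6 called lower. For 4 plasma cell genes it was 2638 and 2644 in lymphoma, against 10766 and 6584 in wild type, with 2 called lower. The sum of 3 erythroid genes was 274 and 427 in lymphoma, against 331 and 500 in wild type, with no gene called. Neutrophil and NK cell sums were higher in lymphoma, also with no gene called. For 5 neutrophil genes the sum was 559 and 546 in lymphoma, against 427 and 467 in wild type. For 3 NK cell genes it was 884 and 1117, against 730 and 587, although 2 of them had a negative difference. Lower values in such a mixture can come from fewer cells of a type or from less RNA per cell, which cannot be told apart. The part of cell mix in the results below was not tested.

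No respiratory chain gene was called in either direction in limma (0 of 89), where 1.82% of all genes were called higher, 2.46% lower and 4.27% in either direction. Without adjustment, 11 had a p under 0.05 with a higher level in lymphoma and 1 with a lower level, against 8.73% and 6.92% of all genes. The 11 became 18 with each array's median subtracted, where the count over all genes went from 1740 to 2274. The count also changed when 1 array was left out, which leaves a single array in a group. It was lower without wild type array 2 or either lymphoma array, and higher without wild type array 1. The median differences without each array follow below. At an adjusted p under 0.10 there were 3, Cox7a1, Ndufb6 and Cox6a2, where 6.81% of all genes passed. The genes nevertheless leaned to one side in these arrays. Of the 89, 73 had a positive log2 difference, against 43.8% of all genes, and the median was 0.20, against -0.039 over all genes. Both lymphoma values lay above both wild type values for 33 genes (37.1%), and below both for 5 (5.62%), where the shares over all genes were 20.6% and 23.5%. The differences were small: 9 of 89 exceeded 0.5 in size and none exceeded 1, within a range of -0.95 to 0.82. The median SE of a difference was 0.21, as large as the median difference itself.

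Wild type array 2 stood apart for these genes. Of the 89, 69 had their lowest value on it (77.5%, against 26.6% of all genes), and 73 were lower on it than on wild type array 1. The wild type arrays differed by a median of 0.38 (log2 of array 1 over array 2), with a range of -0.26 to 1.18. Over all genes this median was 0.035. The lymphoma arrays differed by a median of 0.03 (array 1 over array 2), and the gap between the wild type arrays was the wider one in 67 genes. Set against wild type array 2 alone, both lymphoma values were higher for 78 of 89 genes (87.6%, against 33.9% of all genes). Against wild type array 1 alone they were higher for 34 (38.2%, against 31.9% of all genes). The median over the 89 genes was 0.37 with wild type array 1 left out and -0.028 with wild type array 2 left out. The medians over all genes were then -0.034 and -0.021. With wild type array 2 left out, 41 of 89 differences were positive (46.1%, against 47.1% of all genes). Without lymphoma array 1 the median over the 89 genes was 0.20, and without lymphoma array 2 it was 0.21. The direction of the whole set therefore rested on wild type array 2. The marker sums of B, plasma, dendritic, T and NK cells, given above, were also lower on wild type array 2 than on wild type array 1. Those of macrophages and monocytes, neutrophils and erythroid cells were higher on it. The part of such cells in this gap was not tested.

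**Figure D1:**
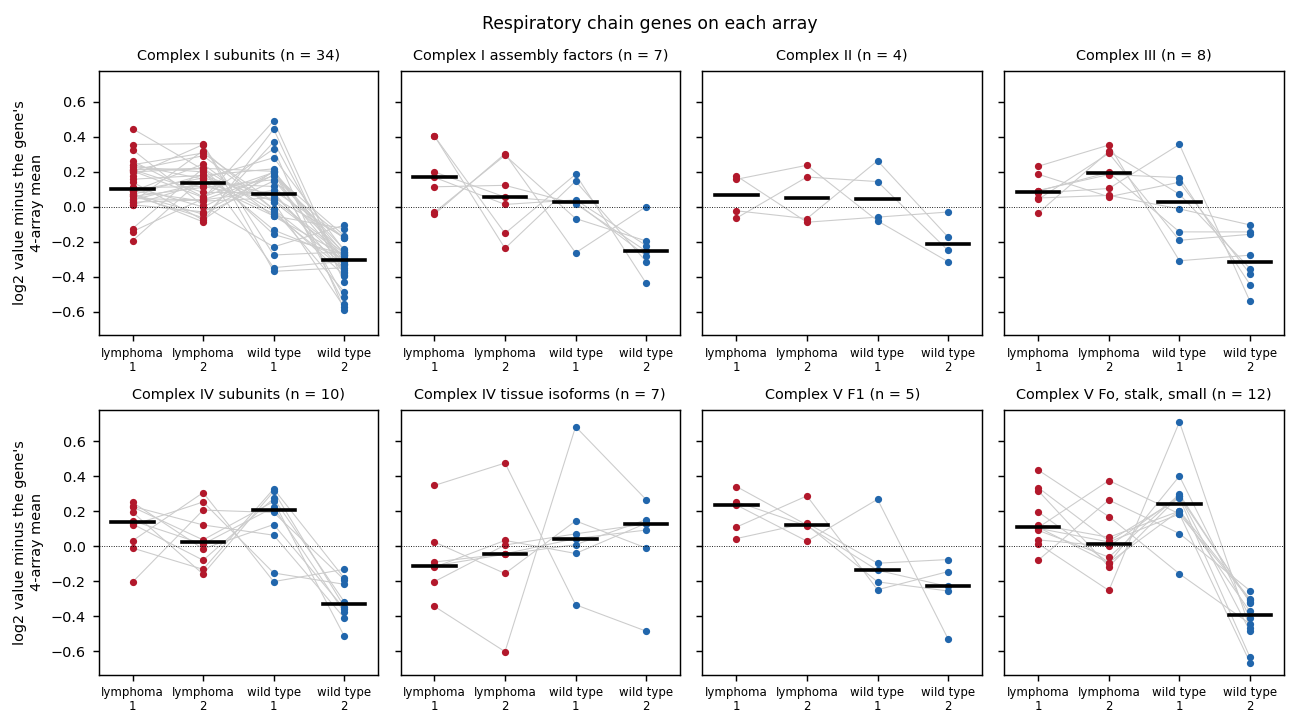
Each panel shows a group of respiratory chain genes on the 4 arrays, lymphoma in red and wild type in blue, as the log2 value minus that gene's mean over the 4 arrays; grey lines join a gene and black bars are medians over genes. In 7 of the 8 groups the median was lowest on wild type array 2, the exception being the tissue isoforms of complex IV.

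**Figure D2:**
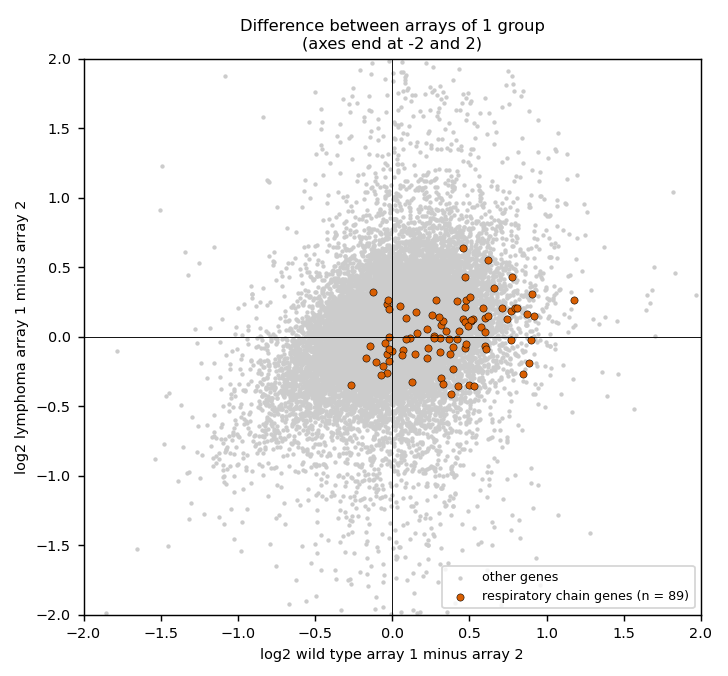
For each gene, the log2 difference between the wild type arrays (array 1 minus array 2, horizontal axis) is set against that between the lymphoma arrays (array 1 minus array 2, vertical axis), with the 89 respiratory chain genes in orange and the other genes in grey. The orange points lie to the right of zero for 73 of 89 genes and are spread about zero on the vertical axis, where 46 are positive.

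The regulatory sequence of these genes is shown as background for 1 or 2 members of each complex. Whether it bears on the low values on wild type array 2 was not tested. Of the 89 members, 73 matched a RefSeq promoter window (GRCm38.p6, 250 bases before to 50 after the first-listed start of the gene). The letters GCGCATGC, the core bound by NRF1, a factor named for nuclear respiratory genes, stood on either strand in 12 of the 73 windows (16.4%), against 3.91% of 15562 windows of the genes on the array. This core is nearly its own reverse complement, so a single site can match on both strands in overlapping letters. The letters CCGGAAG, a core bound by the ETS factor GABPA, stood in 17 of 73 (23.3%, against 12.5%), and AAGATGG, a core of YY1, in 9 of 73 (12.3%, against 6.43%). The TATA box letters TATAAA stood in 8 of 73 (11.0%, against 12.1%). These are matches of letters, not measured binding. The 250 bases before the start follow on the strand of the gene, with letters matched on either strand in capitals. Ndufa11, Sdhb, Cox6a1 and Atp5k hold an NRF1 match here, Uqcr11, Ndufb6 and Cox6a1 hold a GABPA match here, and Cox7a1 holds none of the 4 motifs. Ndufb6 and Cox7a1 were added because they had the lowest adjusted p among the members higher in lymphoma.
Ndufa11 (chr17:56717512-56717761, plus strand): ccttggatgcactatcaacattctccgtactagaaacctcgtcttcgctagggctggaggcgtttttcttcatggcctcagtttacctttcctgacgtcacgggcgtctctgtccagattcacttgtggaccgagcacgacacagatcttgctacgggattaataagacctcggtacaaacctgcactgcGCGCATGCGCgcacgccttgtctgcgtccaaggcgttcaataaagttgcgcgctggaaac
Ndufb6 (chr4:40279422-40279671, minus strand): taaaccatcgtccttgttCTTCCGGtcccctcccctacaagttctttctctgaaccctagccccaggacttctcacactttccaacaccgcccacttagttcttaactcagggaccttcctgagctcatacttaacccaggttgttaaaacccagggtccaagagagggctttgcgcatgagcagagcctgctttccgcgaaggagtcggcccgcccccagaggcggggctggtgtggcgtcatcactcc
Sdhb (chr4:140961021-140961270, plus strand): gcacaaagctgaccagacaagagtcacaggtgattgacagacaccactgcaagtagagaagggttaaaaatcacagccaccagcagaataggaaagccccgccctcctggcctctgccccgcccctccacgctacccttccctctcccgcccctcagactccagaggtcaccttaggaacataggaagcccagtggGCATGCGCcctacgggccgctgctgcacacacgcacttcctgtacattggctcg
Uqcr11 (chr10:80406822-80407071, minus strand): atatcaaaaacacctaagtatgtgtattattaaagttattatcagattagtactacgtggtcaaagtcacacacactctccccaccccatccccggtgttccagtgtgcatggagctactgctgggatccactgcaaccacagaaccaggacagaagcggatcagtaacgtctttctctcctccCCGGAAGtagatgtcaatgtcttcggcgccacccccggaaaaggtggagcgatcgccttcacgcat
Cox6a1 (chr5:115348959-115349208, minus strand): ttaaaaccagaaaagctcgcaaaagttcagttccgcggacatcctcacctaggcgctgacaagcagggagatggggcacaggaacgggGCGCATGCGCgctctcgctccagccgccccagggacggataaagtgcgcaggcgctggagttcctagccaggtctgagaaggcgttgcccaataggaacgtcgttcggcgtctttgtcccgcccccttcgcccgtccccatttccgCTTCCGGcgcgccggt
Cox7a1 (chr7:30183921-30184170, plus strand): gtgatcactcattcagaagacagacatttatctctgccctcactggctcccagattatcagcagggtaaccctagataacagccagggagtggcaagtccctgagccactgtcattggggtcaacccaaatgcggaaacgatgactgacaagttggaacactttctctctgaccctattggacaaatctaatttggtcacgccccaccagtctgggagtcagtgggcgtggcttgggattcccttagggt
Atp5k (chr5:108434400-108434649, minus strand): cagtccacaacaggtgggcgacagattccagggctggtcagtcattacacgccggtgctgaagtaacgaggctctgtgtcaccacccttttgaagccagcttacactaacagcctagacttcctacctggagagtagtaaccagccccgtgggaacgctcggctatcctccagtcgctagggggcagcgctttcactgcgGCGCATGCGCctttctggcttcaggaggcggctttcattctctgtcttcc

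The groups overlapped for all 4 genes shown with an NRF1 match, Sdhb included, whose values are given with complex II. These 4 are examples of the 12 members with a match. The groups also overlapped for Atp5g2, Atp5l, Ndufa8, Ndufaf4, Ndufaf5, Uqcr11 and Uqcrc1, which are among the 12. Over all genes, lymphoma lay above wild type without overlap in 20.6% and below it in 23.5%. A link between a match and the differences was not tested. The groups were apart for Ndufa6, another of the 12, with 511 and 547 in lymphoma, against 480 and 456 in wild type. Ndufa11, an accessory subunit of the membrane arm of complex I, had 971 and 896 in lymphoma, against 1028 and 722 in wild type. The log2 difference was 0.11 and the groups overlapped, with the wild type values on either side of both lymphoma values. Cox6a1, the form of this complex IV subunit outside muscle, had 999.8 and 1329.8 in lymphoma, against 1317 and 1009 in wild type. Here the lymphoma values lay on either side of the wild type values. Atp5k, subunit e of complex V, had 475 and 413 in lymphoma, against 582 and 332 in wild type, and the wild type values again enclosed the lymphoma values. The factors themselves were measured as well: Nrf1 had 437 and 391 in lymphoma, against 416 and 463 in wild type (log2 difference -0.088, SE 0.18, adjusted p = 0.908), and Gabpa had 666 and 577 in lymphoma, against 703 and 531 in wild type (log2 difference 0.02, SE 0.21, adjusted p = 0.986). Neither passed, and the groups of each overlapped.

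Complex I, the largest complex of the chain, had 34 measured subunits, of which none was called. A positive difference was found in 30 (88.2%, against 43.8% of all genes). The groups were apart with lymphoma the higher in 16 (47.1%, against 20.6% of all genes). Both lymphoma values lay above wild type array 2 in all 34 and above wild type array 1 in 16. With wild type array 2 left out, 18 differences were positive (52.9%, against 47.1% of all genes). The median difference was 0.25. It was 0.42 with wild type array 1 left out and 0.034 with array 2 left out. Among the 6 measured core subunits, which carry the cofactors and are conserved from bacteria, Ndufv1, the flavoprotein that binds NADH, had 753 and 757 in lymphoma, against 583 and 539 in wild type. Both lymphoma values were higher, and the difference was 0.43 on the log2 scale (SE 0.17, adjusted p = 0.306). Ndufs1, the large iron-sulfur subunit, had 602 and 483 in lymphoma, against 409.8 and 447 in wild type (log2 difference 0.33, SE 0.20, adjusted p = 0.539). Lymphoma array 1 was the higher of the pair and again the groups did not overlap. The iron-sulfur protein Ndufv2 had 1882 and 1982 in lymphoma, against 1855 and 1413 in wild type, a difference of 0.25 that was 0.058 without wild type array 2. Ndufs3 had 1271 and 1276 in lymphoma, against 1211 and 979 in wild type (log2 difference 0.23, or 0.072 without wild type array 2). For both, wild type array 1 reached nearly the lymphoma level and wild type array 2 lay below it. Ndufs8, which holds iron-sulfur clusters next to the ubiquinone site, had 1795 and 1545 in lymphoma, against 1876 and 1350.2 in wild type (log2 difference 0.066), and Ndufs7, which holds the last cluster, had 4492 and 4367 in lymphoma, against 5056 and 3975 in wild type (log2 difference -0.017). In these the wild type values enclosed both lymphoma values.

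The 28 accessory subunits, which surround the core, had differences from -0.10 to 0.72, with 25 above 0 (89.3%, against 43.8% of all genes). The highest was Ndufb6, of the membrane arm, with 1359.7 and 1365 in lymphoma, against 823 and 835 in wild type. The arrays within each group were close, and the difference of 0.72 on the log2 scale (SE 0.17, adjusted p = 0.079), a ratio of 1.64, was almost the same without wild type array 2 (0.73). Ndufs6, which binds zinc and joins late in assembly, had 790.1 and 672 in lymphoma, against 456 and 467 in wild type. Its groups were also clearly apart, by 0.66 on the log2 scale (SE 0.18, adjusted p = 0.133), and by 0.68 without wild type array 2. At the other end, Ndufa7 had 588 and 669.9 in lymphoma, against 912 and 493 in wild type (log2 difference -0.10), and Ndufb10 had 152 and 195 in lymphoma, against 212 and 147 in wild type (log2 difference -0.031). Both had wild type values that enclosed the lymphoma values. The accessory subunits that follow were picked after their values were seen. Ndufc2, of the membrane arm, had 3417 and 3864 in lymphoma, against 2496 and 2528 in wild type (log2 difference 0.53, SE 0.16, adjusted p = 0.147). Its difference was 0.54 without wild type array 2. Ndufs4, whose loss in mice gives a Leigh-like brain disease, had 2229 and 2183 in lymphoma, against 1735 and 1549.5 in wild type (log2 difference 0.43, SE 0.16, adjusted p = 0.274). Without wild type array 2 this was 0.35. Ndufa1, encoded on the X chromosome, had 379 and 397 in lymphoma, against 327 and 215 in wild type (log2 difference 0.55, SE 0.24, adjusted p = 0.359), and here wild type array 1 lay close to the lymphoma arrays, leaving 0.25 without wild type array 2. Ndufab1, the mitochondrial acyl carrier protein, had 564 and 533 in lymphoma, against 464 and 372 in wild type (log2 difference 0.40). Ndufb11, with a difference of 0.0014, had 1809 and 1657 in lymphoma, against 2236 and 1338 in wild type, so that wild type array 1 was the highest and wild type array 2 the lowest of the 4. Ndufv3, of the NADH-binding module, had 405 and 362 in lymphoma, against 523 and 285 in wild type (log2 difference -0.011). Ndufb8, of the membrane arm, had 495 and 446 in lymphoma, against 540.4 and 286 in wild type (log2 difference 0.26). Both had the same order of arrays as Ndufb11, and without wild type array 2 their differences were -0.45 and -0.20. Ndufa9, which lies near the ubiquinone site, had 766 and 853 in lymphoma, against 694 and 595 in wild type (log2 difference 0.33, SE 0.19, adjusted p = 0.511). Ndufb9, of the membrane arm, had 1238 and 1311 in lymphoma, against 1059.8 and 765 in wild type (log2 difference 0.50, SE 0.21, adjusted p = 0.341). In these the lymphoma values were the higher and wild type array 1 the nearer to them, with 0.22 and 0.27 left without wild type array 2.

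The 7 measured assembly factors of complex I had differences from 0.17 to 0.26 and none was called. The highest were Ndufaf3 and Ndufaf7. Ndufaf3, which acts early in building the ubiquinone-binding module, had 558 and 699 in lymphoma, against 545 and 498 in wild type (log2 difference 0.26, SE 0.20, adjusted p = 0.659). Ndufaf7, a mitochondrial methyltransferase, had 169.7 and 216 in lymphoma, against 146 and 175 in wild type (log2 difference 0.26, SE 0.21, adjusted p = 0.68). The groups were apart for Ndufaf3 and overlapped for Ndufaf7. The lowest were Ndufaf4 with 202 and 181 in lymphoma, against 184 and 154 in wild type (log2 difference 0.18) and Ndufaf5 with 191 and 123 in lymphoma, against 159.9 and 116 in wild type (log2 difference 0.17). For Ndufaf5 both numbers 1 were high and both numbers 2 were low, so the spread inside each group exceeded the difference. The median of the 7 was 0.25, and 0.10 without wild type array 2.

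Complex II, the only complex that is also an enzyme of the TCA cycle, had a median difference of 0.10, with none of its 4 subunits called. The flavoprotein Sdha, which oxidises succinate, had 2206 and 1836 in lymphoma, against 1873 and 1912 in wild type (log2 difference 0.089, SE 0.17, adjusted p = 0.898). Wild type values lay between the lymphoma values. The iron-sulfur protein Sdhb had 871 and 1026 in lymphoma, against 1007 and 767 in wild type (log2 difference 0.11, SE 0.21, adjusted p = 0.903), and the membrane anchor Sdhc had 776 and 752 in lymphoma, against 946 and 699 in wild type (log2 difference -0.09, SE 0.21, adjusted p = 0.92). Groups overlapped for each. Sdhd, the other membrane anchor, had 681 and 720.3 in lymphoma, against 578 and 492 in wild type. This was the single subunit of complex II with both lymphoma values higher, by 0.39 on the log2 scale (SE 0.19, adjusted p = 0.396), with an interval of -0.055 to 0.84. Without wild type array 2 the difference of Sdhd was 0.28, and the median of the complex was 0.006.

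All 8 measured subunits of complex III had a positive difference, from 0.12 to 0.58, where 43.8% of all genes had one. None was called. Uqcr10, a small subunit of the membrane part, had 599 and 652 in lymphoma, against 412 and 422 in wild type. Both groups were tight, and the difference was 0.58 on the log2 scale (SE 0.18, adjusted p = 0.159), or 0.60 without wild type array 2. The core protein Uqcrc2 had 2651 and 3182 in lymphoma, against 2254 and 2308 in wild type (log2 difference 0.35, SE 0.17, adjusted p = 0.41), with lymphoma array 2 the highest. Its partner Uqcrc1, named after its values were seen, had 1782 and 1899 in lymphoma, against 1876 and 1229 in wild type (log2 difference 0.28). Here wild type array 1 matched the lymphoma arrays, and without wild type array 2 the difference was -0.028. Also named afterwards, the Rieske iron-sulfur protein Uqcrfs1, which passes electrons to cytochrome c1, had 329 and 419 in lymphoma, against 354 and 264 in wild type (log2 difference 0.28). Uqcr11 had 748 and 762 in lymphoma, against 907 and 487 in wild type (log2 difference 0.18), and the hinge protein Uqcrh, which lies between cytochromes c1 and c, had 1764 and 1782 in lymphoma, against 1689.7 and 1586 in wild type (log2 difference 0.12). The wild type arrays differed widely for Uqcr11 and hardly for Uqcrh. Uqcrb, a small subunit on the matrix side chosen in the same way, had 4403 and 4739 in lymphoma, against 3745 and 3745 in wild type (log2 difference 0.29, SE 0.14, adjusted p = 0.433). Its wild type arrays were almost equal and lay below both lymphoma arrays, so the difference was the same without wild type array 2 (0.29). The median of complex III was 0.28, and 0.069 without wild type array 2. Cytochrome c1 itself, Cyc1, has a symbol outside the naming rule, and had 1002 and 980.4 in lymphoma, against 1119 and 752 in wild type (log2 difference 0.11, SE 0.23, adjusted p = 0.908). Cycs, the cytochrome c that links complexes III and IV, had 4681 and 4645 in lymphoma, against 4715 and 3307 in wild type (log2 difference 0.24, SE 0.20, adjusted p = 0.704). In both, wild type array 2 lay below the other 3 arrays.

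In complex IV, cytochrome c oxidase, the 10 nuclear subunits used in most tissues had a median difference of 0.20. Of these, 8 were positive (80%, against 43.8% of all genes) and none was called. Without wild type array 1 the median was 0.38, and without wild type array 2 it was -0.13. Cox5b, which faces the matrix, had 1725 and 1891 in lymphoma, against 1428 and 1365 in wild type (log2 difference 0.37, SE 0.17, adjusted p = 0.364). Cox7a2, the isoform of non-muscle cells, had 715 and 665 in lymphoma, against 638 and 460.0 in wild type (log2 difference 0.35, SE 0.22, adjusted p = 0.574). The groups of each were apart, with wild type array 1 near the lymphoma level for Cox7a2. Ndufa4, once counted to complex I and now known as a subunit of complex IV, had 611 and 537 in lymphoma, against 625 and 367 in wild type (log2 difference 0.26). Cox7b had 5230.0 and 4768 in lymphoma, against 5511 and 3641 in wild type (log2 difference 0.16), and Cox8a had 3766 and 3264 in lymphoma, against 4168 and 2768 in wild type (log2 difference 0.046). Cox6b1, which bridges the dimer, had 2185 and 1709.9 in lymphoma, against 2373 and 1504 in wild type (log2 difference 0.033). In all these overlapping cases wild type array 2 was the lowest. Cox6a1, with its promoter above, had a log2 difference of -0.00011 with an interval of -0.56 to 0.56. Cox6c, a small membrane subunit named after its values were seen, had 5758 and 6968 in lymphoma, against 4899 and 5143 in wild type (log2 difference 0.34, SE 0.16, adjusted p = 0.387). It was among the few here with wild type array 1 the lowest, and its difference was 0.37 without wild type array 2. Cox4i1, a regulatory subunit, had 904 and 831 in lymphoma, against 1142 and 803 in wild type (log2 difference -0.14, SE 0.22, adjusted p = 0.868), the lowest difference of the 10. Wild type array 1 was the highest and wild type array 2 the lowest. Its interval ran from -0.69 to 0.40.

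The 7 tissue isoforms of complex IV ran differently from the subunits of most tissues. In 6 of them the difference was negative, and their median was -0.13. Cox6a2, the isoform of heart and skeletal muscle, had the lowest difference of all 89 genes, with 245 and 205 in lymphoma, against 499 and 374 in wild type. Both lymphoma values were well below both wild type values, with a difference of -0.95 on the log2 scale (SE 0.22, adjusted p = 0.079), a ratio of 1.93 of wild type over lymphoma. It missed the threshold with all 4 arrays and passed it under quantile normalization (adjusted p = 0.048), with the replicate number as a block (0.0497) and without lymphoma array 1 (0.014), while its adjusted p lay at 0.378 with wild type array 1 left out and at 0.2 with array 2 left out. Dendritic cell genes were lower on the same arrays, Siglech with 102 and 111 in lymphoma, against 794 and 527 in wild type and Cd209a with 55.5 and 61.3 in lymphoma, against 1445 and 1044 in wild type, and their part in the Cox6a2 value was not tested. Cox7a1, also a heart and muscle isoform, had the highest difference of the 89, with 156 and 171 in lymphoma, against 97.4 and 87.7 in wild type. Its groups were tight and apart, by 0.82 on the log2 scale (SE 0.17, adjusted p = 0.0589), a ratio of 1.77. It passed with the genes of the lowest tercile of mean level left out (adjusted p = 0.0402), with a robust variance trend (0.0377) and without lymphoma array 1 (0.0335). Its adjusted p was 0.264 with wild type array 1 left out, 0.357 with array 2 left out and 0.611 with the medians over the 89 genes subtracted from each array, a setting added after the data were seen. That setting takes out by construction any shift that the 89 genes share. The remaining isoforms had smaller differences. Cox4i2, an isoform of lung that hypoxia induces in human cells, had 139 and 161 in lymphoma, against 168 and 175 in wild type (log2 difference -0.20). Cox8b, of heart and skeletal muscle, had 84.2 and 88.1 in lymphoma, against 91.5 and 101 in wild type (log2 difference -0.16), and the testis isoform Cox6b2 had 104 and 108 in lymphoma, against 114 and 118 in wild type (log2 difference -0.13). In these 3 both lymphoma values lay below both wild type values. The testis isoforms Cox7b2 and Cox8c had differences of -0.13 and -0.088, with overlapping groups. Detection calls were not used here, so whether such low intensities lie above background is unknown.

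The paralogs that match by name only were both lower in value. Ndufa4l2, which hypoxia induces in other cells, had 108 and 93.7 in lymphoma, against 111 and 112 in wild type (log2 difference -0.15, SE 0.17, adjusted p = 0.811), with both lymphoma values the lower. Cox7a2l, which joins complexes III and IV into supercomplexes, had 429 and 319 in lymphoma, against 565 and 407 in wild type (log2 difference -0.38, SE 0.25, adjusted p = 0.6). Array number 1 was the higher in each group, and the groups overlapped.

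**Figure D3:**
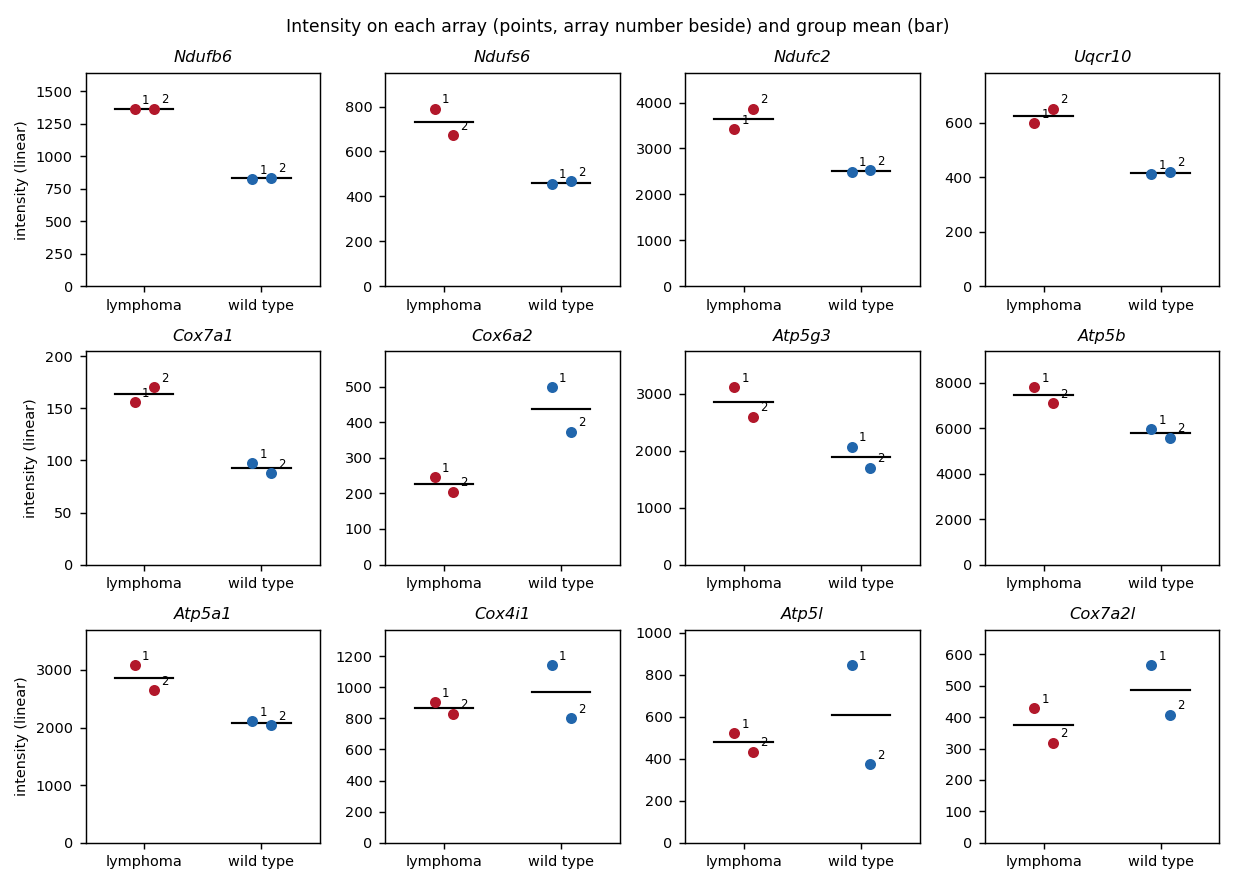
Linear intensity of 12 respiratory chain genes on each array (points, with the array number beside them) and the mean of each group (bar), lymphoma in red on the left and wild type in blue on the right. The groups are apart for Ndufb6, Ndufs6, Ndufc2, Uqcr10, Cox7a1, Cox6a2, Atp5g3, Atp5b and Atp5a1, and overlap for Cox4i1, Atp5l and Cox7a2l.

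Complex V, ATP synthase, differed by part in these arrays. The 5 subunits of the F1 head, where ATP is made, had a median of 0.37. All 5 were positive, where 43.8% of all genes were. The median of the 5 stayed between 0.30 and 0.41 whichever array was left out. The catalytic beta subunit Atp5b had 7808 and 7099 in lymphoma, against 5952 and 5584 in wild type (log2 difference 0.37, SE 0.14, adjusted p = 0.261). The alpha subunit Atp5a1 had 3082 and 2646 in lymphoma, against 2113 and 2038 in wild type (log2 difference 0.46, SE 0.16, adjusted p = 0.241), and the delta subunit Atp5d had 7227 and 8178 in lymphoma, against 5642 and 6061 in wild type (log2 difference 0.39, SE 0.14, adjusted p = 0.242). Atp5c1, the gamma shaft that turns within the head, had 2395 and 2547 in lymphoma, against 2173 and 2204 in wild type (log2 difference 0.17, SE 0.15, adjusted p = 0.725). In these 4 both lymphoma values were the higher and the wild type arrays lay close together. They were named after their values were seen, and none passed the threshold. Atp5e, the epsilon subunit, had 657 and 569 in lymphoma, against 672 and 387 in wild type (log2 difference 0.26), and here wild type array 1 was the highest.

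The 12 subunits of the membrane rotor, the stalk and the small subunits of complex V had a median of 0.15, and -0.14 without wild type array 2. All 12 had their lowest value on wild type array 2, and 7 had their highest on wild type array 1. The wild type arrays differed here by a median of 0.61, against 0.052 in the F1 head. Atp5g1, Atp5g2 and Atp5g3 encode the same mature c subunit of the rotor ring. Atp5g3 had 3115 and 2592 in lymphoma, against 2066 and 1695 in wild type, apart by 0.60 on the log2 scale (SE 0.19, adjusted p = 0.176), and it was the single one of the 12 whose groups did not overlap. Without wild type array 2 its difference was 0.46. Atp5g1 had 2735 and 2214 in lymphoma, against 2623 and 1398 in wild type (log2 difference 0.36, SE 0.31, adjusted p = 0.715), and Atp5g2 had 4549 and 3722 in lymphoma, against 4571 and 3223 in wild type (log2 difference 0.10, SE 0.22, adjusted p = 0.91). Their wild type arrays differed more than the groups did. Atp5md, a small subunit found in dimers of the enzyme, had 2009.6 and 2419.6 in lymphoma, against 2121 and 1178 in wild type (log2 difference 0.48, SE 0.30, adjusted p = 0.563), or 0.056 without wild type array 2. Atp5o, the stalk protein that holds the F1 head, had 855 and 1085 in lymphoma, against 950.5 and 758 in wild type (log2 difference 0.18), and Atp5j2, subunit f, had 2032 and 1828 in lymphoma, against 2344 and 1526 in wild type (log2 difference 0.027). Both were named after their values were seen, and their groups overlapped. Atp5l, subunit g, had the lowest difference of the complex, with 523 and 435 in lymphoma, against 847 and 374 in wild type (log2 difference -0.24, SE 0.38, adjusted p = 0.87). Its wild type arrays lay further apart than those of any other of the 89 genes, by 1.18 on the log2 scale, and all 6 probe sets annotated to it had differences between -0.35 and -0.13.

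**Figure D4:**
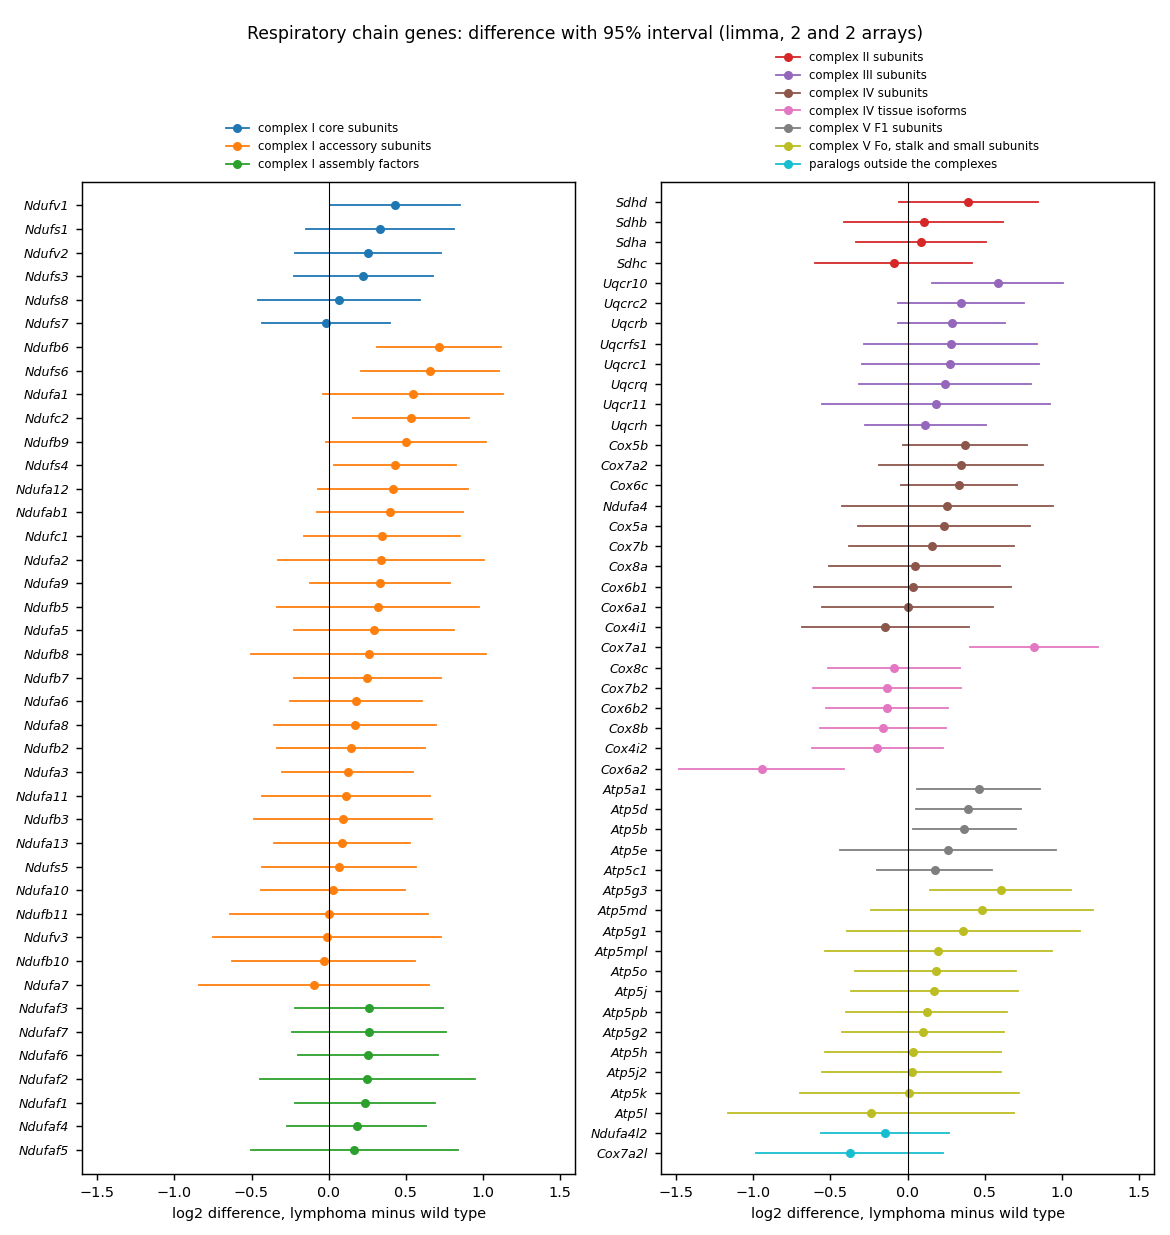
Log2 difference of each of the 89 genes, lymphoma minus wild type (point), with its 95% interval from limma (line), ordered within groups by size and coloured by complex and part; complex I is on the left. Most points lie above 0 and most intervals include 0, and the intervals farthest from 0 belong to Cox7a1 and Cox6a2.

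Respiratory chain genes have many processed pseudogenes, with which a probe set can share sequence. Of the 89 genes, 17 had several single-symbol probe sets, and the one with the highest mean was used. The probe sets had the same sign for 15 of them. The exceptions were Ndufb11, with log2 differences of -0.0046 and 0.0014 for its probe sets, and Atp5h, subunit d of the stalk of complex V, with -0.073 to 0.034. Cox7c and Ndufb4 are measured only by probe sets that also carry a pseudogene or paralog name, so they are not among the 89. The probe set of Cox7c with the highest level had 5596 and 6081 in lymphoma, against 6404 and 4514 in wild type (log2 difference 0.12), and that of Ndufb4 had 2266 and 2727 in lymphoma, against 2939.6 and 2139 in wild type (-0.012). Wild type array 2 was the lowest for both.

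Other mitochondrial genes were set beside the respiratory chain, from lists that are not independent of earlier results of these data. Among 77 genes of the mitochondrial ribosome, none was called, and 67 had positive differences (87%, against 43.8% of all genes). Their median was 0.23, or -0.02 without wild type array 2. Mitochondrial import genes had none called, with 22 of 24 positive (91.7%) and a median of 0.23, or 0.024 without that array. These lists had the same low values on wild type array 2 as the respiratory chain, with 80.5% and 83.3% of their genes lowest there. The assembly factors of complexes I to V under other symbols had none of 36 called and a median of 0.16. The TCA cycle and pyruvate dehydrogenase genes had none of 17 called and a median of 0.10, or 0.021 without wild type array 2. Ubiquinone synthesis had none of 12 called and a median of 0.15, or 0.16 without that array. Genes that keep and transcribe mitochondrial DNA had none of 13 called and a median of 0.085, among them Tfam, which packs that DNA, with 409 and 308 in lymphoma, against 356 and 228 in wild type (log2 difference 0.32, SE 0.28, adjusted p = 0.715). Oxidant handling and uncoupling genes had none of 11 called and a median of 0.19, or 0.11 without wild type array 2. The 7 further subunits and electron carriers had none called and a median of 0.24, or 0.19 without that array.

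Among 11 nuclear regulators of mitochondrial genes, 1 was called lower and none higher, where 2.46% of all genes were called lower and 1.82% higher. Their differences were positive in 6 and negative in 5, from -0.99 to 0.62, with a median of 0.02. Ppargc1a, the coactivator PGC-1alpha that drives mitochondrial biogenesis in muscle and brown fat, had 43.3 and 45.7 in lymphoma, against 91.3 and 85.3 in wild type. It fell by 0.99 on the log2 scale (SE 0.17, adjusted p = 0.0307 in limma), from low intensities. The call ended with the probe sets of the gene averaged (-0.82, adjusted p = 0.0773), with wild type array 1 left out (adjusted p = 0.253) and with array 2 left out (adjusted p = 0.2). Its relative Ppargc1b had 267 and 219 in lymphoma, against 298 and 271 in wild type (log2 difference -0.23, SE 0.19, adjusted p = 0.695), and Esrra, the nuclear receptor that works with these coactivators, had 207 and 265 in lymphoma, against 299.9 and 337 in wild type (log2 difference -0.44, SE 0.20, adjusted p = 0.384). Both lymphoma values were the lower for each, and neither passed. Of 6 mitochondrial genes known to respond to hypoxia, 1 was called higher and none lower, beside the same shares of 1.82% and 2.46% over all genes. Their differences were positive in 5 and negative in 1, with a median of 0.59, or 0.25 without lymphoma array 1. Both lymphoma values lay above both wild type values for 3 of them (50%, against 20.6% of all genes). Bnip3, a receptor for the removal of mitochondria, had 561 and 613 in lymphoma, against 186 and 142 in wild type, and rose by 1.85 on the log2 scale (SE 0.21, adjusted p = 0.00834 in limma). With wild type array 1 left out its adjusted p was 0.105, and with array 2 left out it was 0.0975. Cox4i2 and Ndufa4l2, the respiratory chain genes known to respond to hypoxia, had differences of -0.20 and -0.15.

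**Figure D5:**
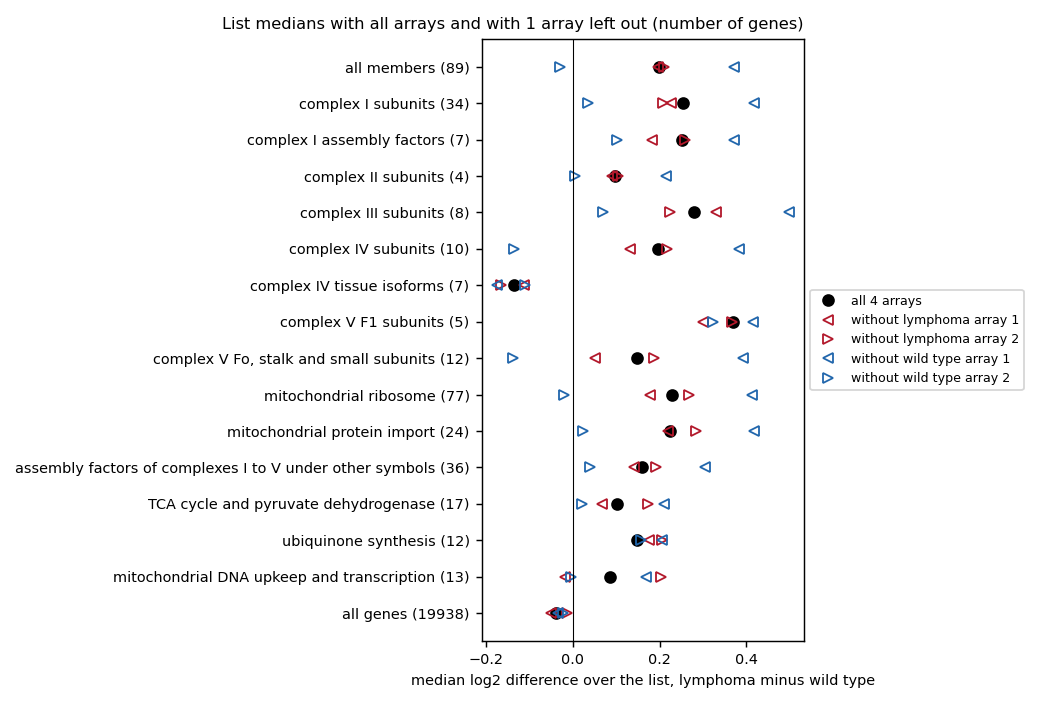
Median log2 difference, lymphoma minus wild type, over each group of respiratory chain genes, other mitochondrial lists and all genes (number of genes in brackets), with all 4 arrays (black) and with 1 array left out (open triangles). Leaving out wild type array 2 brings most mitochondrial medians near or below 0. The median of the 5 F1 subunits of complex V stays at 0.32 and that of the 12 ubiquinone synthesis genes at 0.16.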

How the data were processed

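Gene expression was measured in 2 lymphoma and 2 wild type samples on single-colour Affymetrix arrays. The deposited values are intensities on a linear scale, 1 per probe set and array, made by the authors with Affymetrix Expression Console, per the submitters' processing notes. No source used here gives its version, the background correction or the summarisation. Of 35556 probe sets, 21789 have 1 gene symbol in the platform annotation, 1621 have several and 12146 are not listed. Each gene was represented by its single-symbol probe set with the highest mean, which gave 19938 genes. The 89 respiratory chain symbols are those of the platform annotation, each with a gene ID, and some may since have been renamed. Log2 intensities were fitted with limma 3.58.1 in R 4.3.3 (lmFit, then eBayes with a variance trend), with group as the only term, and p-values were adjusted over all genes. The fit has 2 residual degrees of freedom per gene and 4.24 prior ones. An exact permutation test of 2 against 2 arrays cannot go below p = 0.333, so none was used for single values. The steps were tested on simulated data. The genes, their groups and the other lists were chosen with earlier results of these data known.

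In the text, the named genes are any called member, the 2 highest and 2 lowest differences of each complex and of the assembly factors, the isoform sets, complex II, the complex I core, and a fixed set of regulators and carriers; others are named as chosen after their values were seen. Alternatives changed the normalization, the filter on low values, the variance trend, the choice of probe set, the replicate number as a block and the arrays included. Scan dates, detection calls and raw probe signals were not used here. Promoter windows came from RefSeq (GRCm38.p6) and were searched for each motif on both strands.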

Additional observations from a re-analysis of the deposited data

How the results depend on the processing

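The counts over all genes depended on which arrays were included: with limma, 362 genes in all were called higher and 490 lower, and leaving out 1 array at a time gave 0 to 1057 higher and 0 to 843 lower, with 0 each without wild type array 1 or wild type array 2; without adjustment, a p under 0.05 was reached by 1418 higher and 890 lower genes in the first case and by 929 and 1120 in the second. At an adjusted p under 0.10, 665 genes were higher. Among the respiratory chain genes the count of 0 higher became 1 (Cox7a1) with the lowest tercile of mean level left out and with a robust variance trend, and 2 at an adjusted p under 0.10. The count of 0 lower became 1 (Cox6a2) under quantile normalization, with the replicate block, at an adjusted p under 0.10, and with the medians over the 89 genes subtracted from each array, a setting added after the data were seen. Leaving out 1 array gave 0 to 1 in each direction, with 1 each without lymphoma array 1 and 0 without any of the other 3. With the medians over the 89 genes subtracted, 1 of them was higher at an unadjusted p under 0.05 in limma, against 11. Over all genes 1039 were higher, against 1740. This setting takes out by construction any shift that the 89 genes share, so the lower count cannot speak to that shift. The replicate numbers are not stated to pair the samples, and the deviations of same-numbered arrays correlated at 0.23 over genes. The block changed no other call among the genes named in the text by rule. The median of complex I subunits ran from 0.034 to 0.42 and that of complex IV subunits from -0.13 to 0.38 when 1 array was left out, the lower end in each case without wild type array 2. In the same way the median of complex I assembly factors ran from 0.10 to 0.37, that of other assembly factors from 0.040 to 0.30, that of mitochondrial ribosome genes from -0.020 to 0.41 and that of import genes from 0.024 to 0.42. With the medians over the 89 genes subtracted, complex I assembly factors had a median of 0.13 and other assembly factors 0.039. The cause was not tested. With each array's median subtracted, the median over all genes moved to 0.038 and that over the 89 genes to 0.28. Array signal over background is unknown here, so low intensities such as those of the tissue isoforms carry an unknown share of background.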
